A study of Rattus norvegicus with 10 samples.

Results

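The genes described here are 10 regulators and markers of nephrogenesis, the making of new nephrons in the embryonic kidney: Hoxa11, Meis2, Pax8, Lhx1, Wnt4, Bmp7, Gdnf, Jag1, Crym and Tmem100. The rule that picked them goes by name and uses no measured value, but it was set with earlier results of these data known. It takes every probe set (the group of oligonucleotides on the array that reads 1 transcript) whose only gene symbol is 1 of these 10. Each gene had 1 such probe set, so the members are 10 of the 15923 probe sets on the array. All values come from whole fetal kidneys of rats on day 22 of gestation, and 5 arrays in each of 2 groups were compared. In the normal group (replicates 1 to 5) the mothers were untreated. In the hyperinsulinemic group (replicates 6 to 10) the mothers were Wistar rats of 200 to 280 g that carried insulin in a slow-release implant, a piece of 2 mm placed under the skin a week before mating and once more a week after it, and their fetuses were growth restricted. A regular diet is recorded for the mothers of both groups. The strain is recorded for the implanted mothers alone, and litter, fetal sex and whether kidneys were pooled are not given in the labels, so the p-values speak of the spread among these arrays alone, part of which may be technical.

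Nephrons arise from a cap of progenitor cells that sits around each tip of the ureteric bud, the epithelial tree that becomes the collecting ducts. The cap secretes GDNF, which acts through the receptor RET on the bud and drives its branching. Signals from the bud induce part of the cap to switch on Wnt4, to aggregate into a renal vesicle and to become an epithelium, which BMP7, Notch ligands such as JAG1 and transcription factors such as PAX8 and LHX1 then help to sustain and to pattern. In the rat this process is still running at birth, so a late fetal kidney holds progenitors, vesicles and mature tubules side by side.

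None of the 10 genes differed between the groups beyond the spread between arrays. Of the 8 genes bright enough to be tested, 4 were nominally higher and 4 nominally lower in the hyperinsulinemic group (50.9% of all tested probe sets were higher). Of these 8, 0 passed limma's test at an adjusted p of 0.05 (adjusted p from 0.941 to 0.996). Over all 9601 tested probe sets the same rule called 1, or 0.0104%, so a count of 0 among 8 members lies where the background does. At an unadjusted p under 0.05 the count was also 0 of 8, against 5.36% of all tested probe sets. The exact permutation test over the 10 arrays gave 0 of 10 members under 0.05, with a smallest p of 0.103. It was not run over all probe sets, so no background share stands beside that count. The 2 groups of arrays overlapped for all 10 members, 2 of them below the filter, while they did not overlap for 1.04% of the tested probe sets. The median log2 difference of the 8 members was -0.0048, beside 0.0020 over all tested probe sets. Log2 differences are hyperinsulinemic minus normal on the log2(signal + 16) scale. An error after ± is the SD of the 5 arrays where a signal is given, and the standard error of limma's fit where a log2 difference is given.

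**Figure D1:**
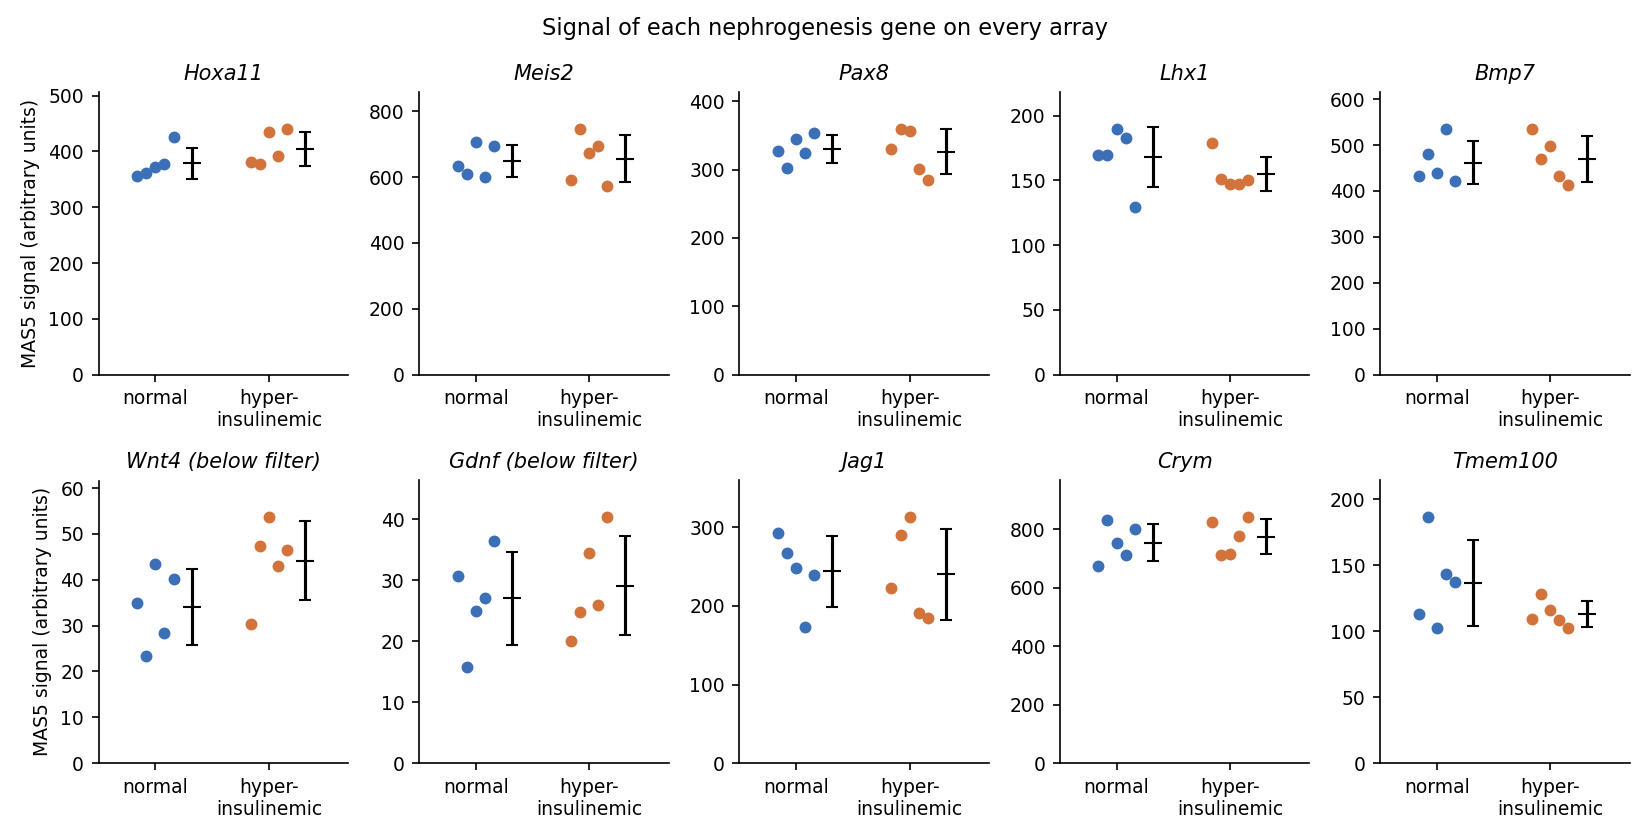
MAS5 signal (arbitrary units, axes from 0) of the 10 genes on each of the 10 arrays, in replicate order from left to right within a group, with the mean and SD of each group as a black bar. The groups overlap in every panel; Wnt4 and Gdnf, between 15.8 and 53.6, lie below the filter for the test.

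For the 8 tested genes, the spread between arrays set bounds, gene by gene, on the difference between these 2 groups of arrays. The 95% confidence intervals of the 8 tested genes all lay between -0.49 and 0.29 on the log2 scale, with standard errors from 0.07 to 0.15, beside a median of 0.08 over all tested probe sets. The bounds are relative to the array as a whole, because each array had been scaled to the same trimmed mean. They are not bounds on an effect of the treatment, because litter and pooling are unknown and Xist level, given below, separated the groups. In whole-kidney RNA, fewer cells of a type and less RNA per cell cannot be told apart, so a steady signal describes the tissue's content of a transcript and not the number of progenitors.

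Hoxa11, a homeobox factor of the cap mesenchyme that acts with its paralogs to specify the metanephros, read 355.9, 361.9, 372.6, 376.7 and 425.5 in normal replicates 1 to 5. In hyperinsulinemic replicates 6 to 10 it read 380.8, 377.1, 435.4, 390.9 and 440.4. Each hyperinsulinemic array lay above the normal median of 372.6, and 2 of them lay above every normal array, but normal replicate 5 sat among the higher hyperinsulinemic values. The group means were 379 ± 27.5 and 405 ± 30.6, a log2 difference of 0.09 ± 0.07 (limma, unadjusted p = 0.194, adjusted p = 0.973). The 95% interval, as a percentage of signal + 16, ran from 3.62% lower to 18.1% higher. When each array was left out in turn the difference stayed above 0, between 0.06 and 0.13.

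Meis2, a TALE-class homeobox factor and partner of HOX proteins that marks stromal and mesenchymal cells of the developing kidney, read 633.8, 610.3, 705.9, 601.6 and 695.2 in the normal arrays. The hyperinsulinemic arrays read 592.5, 746.6, 672.3, 693.2 and 574. The highest value (replicate 7) and both lowest values (replicates 10 and 6) belonged to the hyperinsulinemic group. The group means of 649 ± 48.3 and 656 ± 71.8 gave a log2 difference of 0.01 ± 0.08 (limma, adjusted p = 0.996), with an interval from 10.2% lower to 12.9% higher.

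Pax8, a paired-box factor needed, redundantly with a close relative, for the first kidney epithelia, read 326.7, 302.1, 344.8, 324.7 and 353.8 in the normal arrays. The hyperinsulinemic arrays read 330.3, 359.7, 357.2, 301.2 and 284.5. Here the hyperinsulinemic arrays held the 2 highest values and the 2 lowest, on either side of the normal range. Group means were 330 ± 20.0 and 327 ± 33.4, and the log2 difference was -0.02 ± 0.08 (limma, adjusted p = 0.991), with an interval from 11.8% lower to 10.3% higher.

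Lhx1, a LIM-homeobox factor that is switched on in the renal vesicle and is required for nephron patterning, read 169.8, 169.3, 189.8, 182.8 and 129.8 in the normal arrays. In the hyperinsulinemic arrays it read 178.7, 150.8, 147.4, 147.4 and 150.1. Hyperinsulinemic replicates 7 to 10 were tightly grouped between 147.4 and 150.8 and lay below normal replicates 1 to 4, while replicate 6 of that group and normal replicate 5 lay on the opposite side. The means were 168 ± 23.2 and 155 ± 13.4, a log2 difference of -0.10 ± 0.10 (limma, unadjusted p = 0.305, adjusted p = 0.973). Leaving out normal replicate 5 moved it to -0.18 (limma, adjusted p = 0.856), leaving out normal replicate 3 to -0.06, and the mean level of liver transcripts as a covariate moved it to -0.20 (limma, adjusted p = 0.971).

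Among the secreted signals, Bmp7, a survival and proliferation factor for the nephron progenitors, was read clearly above the filter. Its signals were 432.7, 480.3, 438.5, 534.4 and 421.4 in the normal arrays and 535.2, 469.2, 498.8, 432.5 and 412.4 in the hyperinsulinemic arrays. The highest value of each group, 534.4 in normal replicate 4 and 535.2 in hyperinsulinemic replicate 6, came from the 2 arrays with the most Alb, the liver's albumin transcript (842.2 and 1741.9, against 42.9 to 436.4 on the others). The means of 461 ± 46.5 and 470 ± 49.5 gave a log2 difference of 0.02 ± 0.08 (limma, adjusted p = 0.988), with an interval from 9.99% lower to 14.8% higher. With the liver transcripts as a covariate the difference was -0.13 (limma, adjusted p = 0.967), and without those 2 arrays it was 0.03 (limma, adjusted p = 0.954); the part of liver RNA in the Bmp7 signal was not tested further.

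Wnt4, the signal of the cap that triggers its conversion into epithelium, and Gdnf, the ligand of RET, were dim and did not reach the level set for the test. That level was the 40th percentile of each array, 79.2 to 87.6, to be met on at least 5 of 10 arrays, and both genes met it on 0 of 10. No detection calls were used, so it is not known on which arrays these signals exceed the background of the probes. Wnt4 read 34.9, 23.3, 43.4, 28.3 and 40.1 in the normal arrays and 30.4, 47.4, 53.6, 43 and 46.4 in the hyperinsulinemic arrays. Its 3 highest values were hyperinsulinemic (replicates 8, 7 and 10), and replicate 6 of that group fell among the lower normal values. The means were 34.0 ± 8.27 and 44.2 ± 8.59, a log2 difference of 0.27 with an exact two-sided permutation p = 0.103 (5 against 5 arrays cannot give less than 0.00794). Fitted with all 15866 probe sets and no filter, its 95% interval was -0.04 to 0.58 (limma, adjusted p = 0.949), the widest upward bound among the 10 genes. The log2 difference of Wnt4 was 0.38 with a pseudocount of 1, 0.21 with 32 and 0.44 with the liver covariate.

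Gdnf read 30.7, 15.8, 25, 27 and 36.5 in the normal arrays and 20, 24.8, 34.5, 25.9 and 40.3 in the hyperinsulinemic arrays. These ranges lay almost on top of each other. The means were 27.0 ± 7.64 and 29.1 ± 8.16 and the log2 difference was 0.07 (exact permutation p = 0.683; interval without a filter -0.27 to 0.41). The lowest array of each group was the same for Wnt4 and Gdnf, normal replicate 2 and hyperinsulinemic replicate 6. These were also the arrays with the lowest 40th percentile, 80.6 and 79.2, against 83.3 to 87.6 on the others; the part of that in both readings was not tested.

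Jag1, a membrane-bound Notch ligand that is expressed in the renal vesicle and helps to set proximal identity, was the most variable of the tested members. It read 292.9, 267.8, 247.9, 172.6 and 238.8 in the normal arrays and 222.8, 289.8, 312.7, 191.6 and 184.6 in the hyperinsulinemic arrays. In either group the highest array stood far above the lowest, and both ranges covered nearly the same span. The within-group SD of its log2 values was 0.30, beside a median of 0.13 over all tested probe sets. The means, 244 ± 45.0 and 240 ± 58.0, differed by -0.03 ± 0.15 on the log2 scale (limma, adjusted p = 0.992). The interval, from 21.8% lower to 22.5% higher, was the widest among the tested members.

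**Figure D2:**
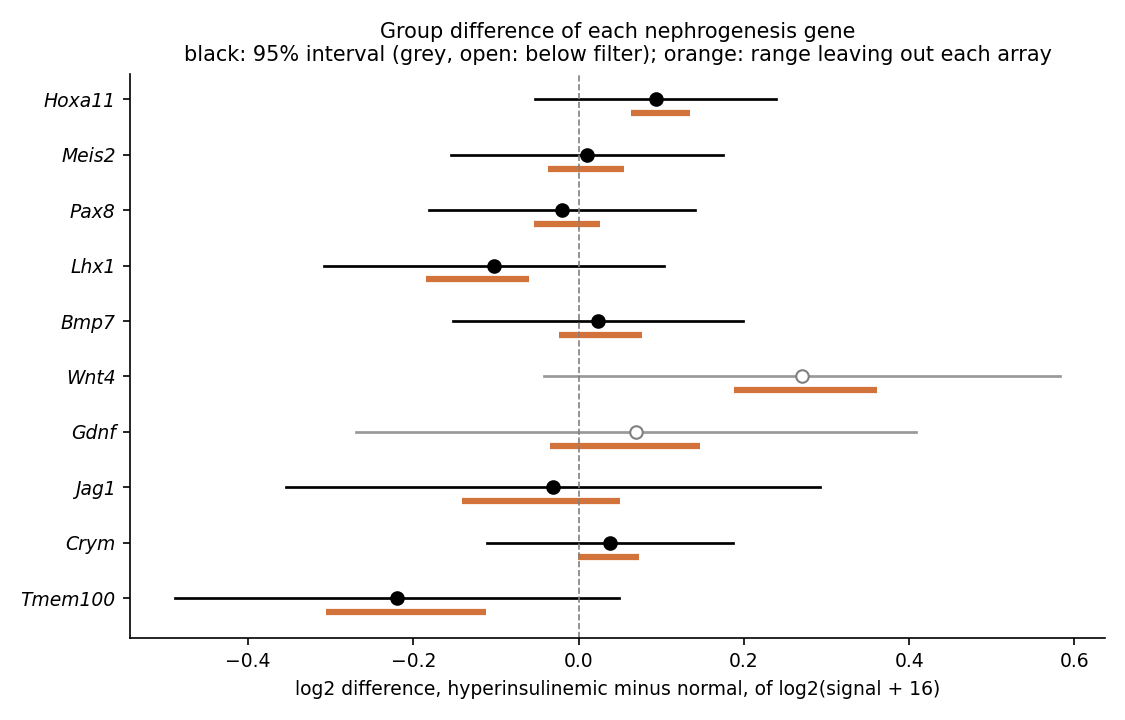
Log2 difference (hyperinsulinemic minus normal) of each gene with its 95% confidence interval, and below it in orange the range obtained by leaving out each of the 10 arrays. Every interval crosses 0; Jag1 and Tmem100 have the widest intervals among the tested genes, and Wnt4 and Gdnf (grey, fitted without a filter) lie below the filter.

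Crym, which encodes the thyroid hormone-binding protein mu-crystallin and serves as a marker of cap progenitors, was bright and steady. It read 674.8, 830.3, 753.9, 711.4 and 799.7 in the normal arrays and 826.4, 713, 715.2, 775.8 and 840.8 in the hyperinsulinemic arrays. The means of 754 ± 63.2 and 774 ± 59.98 differed by 0.04 ± 0.07 on the log2 scale (limma, adjusted p = 0.982), and the interval ran from 7.43% lower to 13.9% higher.

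Tmem100, a small transmembrane protein found in nephron progenitors and in BMP-responsive endothelium, had the smallest p of the 8 tested members. It read 113.1, 186.4, 102.5, 143.6 and 137.3 in the normal arrays and 109.3, 128.5, 116.1, 108.9 and 102.2 in the hyperinsulinemic arrays. No hyperinsulinemic array reached the normal median of 137.3, yet normal replicates 1 and 3 lay within the hyperinsulinemic range, and the spread was wider in the normal group (coefficient of variation 23.9%) than in the hyperinsulinemic group (8.82%). The means of 137 ± 32.6 and 113 ± 9.96 gave a log2 difference of -0.22 ± 0.13 (limma, unadjusted p = 0.101, adjusted p = 0.941). Normal replicate 2 carried a large part of it: without that array the difference was -0.11 (limma, adjusted p = 0.996), and without normal replicate 3 it was -0.31. Endothelial markers were measured beside it. Their summed signal over 8 tested genes ran from 3795 to 4010 in the normal arrays and from 3728 to 4160 in the hyperinsulinemic arrays, and 7 of the 8 had a log2 difference below 0, with a median of -0.02 and 0 passing (0 also at an unadjusted p under 0.05, limma).

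Across arrays the members showed no shared rise or fall once the group means had been subtracted. Of 28 pairs among the 8 tested genes, 11 correlated positively and 17 negatively, with Pearson's r from -0.64 to 0.67 and a median of -0.09 over 10 arrays. Meis2 and Pax8 gave the highest value, r = 0.67 (permutation p = 0.0387; Benjamini-Hochberg adjusted p = 0.558, over 28 pairs), with Spearman's rho = 0.70 (permutation p = 0.0302; adjusted p = 0.523). Without the 2 arrays farthest from the median of Meis2, hyperinsulinemic replicates 7 and 10, where both genes were high and low together, it was 0.37. Within the groups it was 0.85 over the 5 normal and 0.60 over the 5 hyperinsulinemic arrays, given as values only at that size. Hoxa11 and Lhx1 gave the lowest, r = -0.64 (permutation p = 0.0399; adjusted p = 0.558) and rho = -0.50 (permutation p = 0.145; adjusted p = 0.523), and -0.21 without normal replicate 5 and hyperinsulinemic replicate 10. After adjustment 0 pairs passed by either coefficient, while 2 and 1 had an unadjusted permutation p under 0.05 by Pearson's and Spearman's coefficient.

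**Figure D3:**
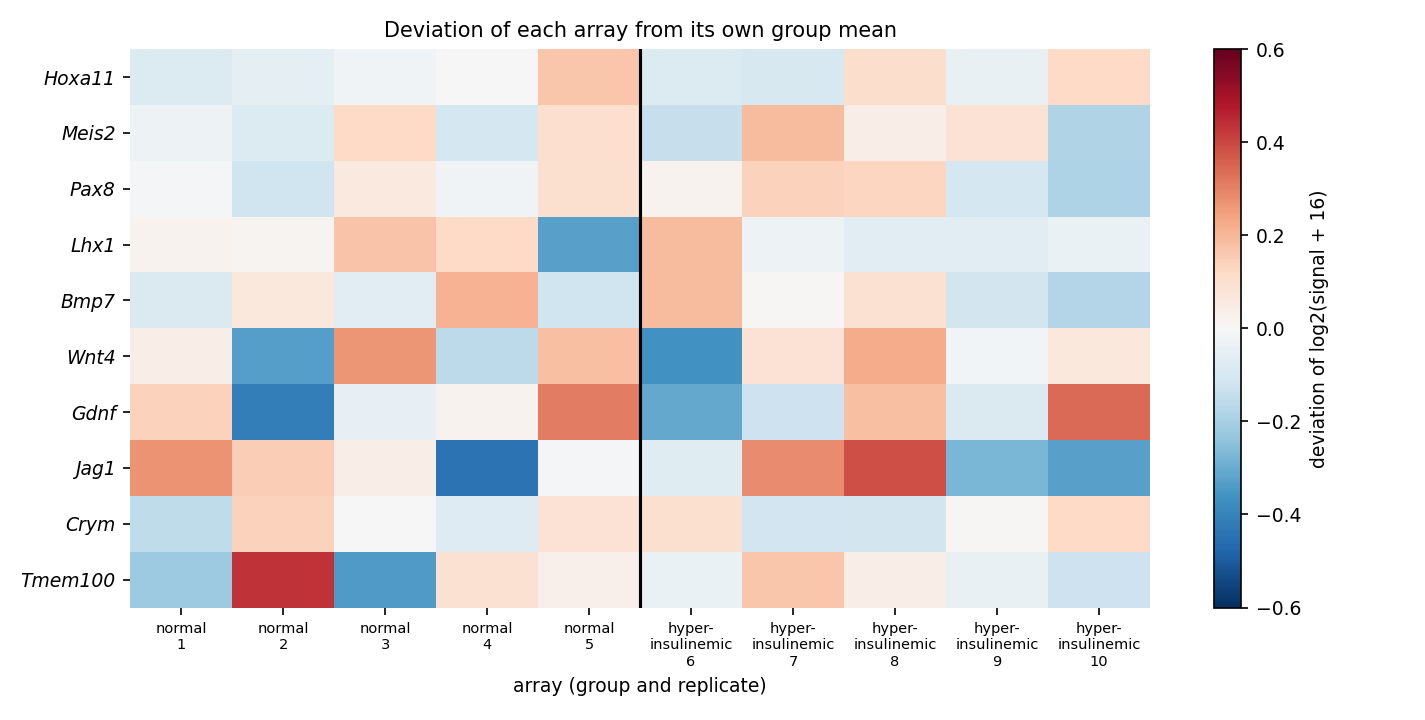
Deviation of each array from the mean of its own group, in log2(signal + 16), for the 10 genes (rows) on the 10 arrays (columns, normal to the left of the line). Jag1 and Tmem100 show the strongest colours among the tested genes, from -0.44 (Jag1, normal replicate 4) to 0.43 (Tmem100, normal replicate 2), and no array is high or low across all genes.

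The wider programme of kidney development was examined through 9 lists that together held 106 tested genes, the 8 members among them. Of the 106, 54 were nominally higher and 52 lower, the median log2 difference was 0.0035 (beside 0.0029 over all 7267 tested genes), and 0 passed limma's adjusted threshold. At an unadjusted p under 0.05 there were 5 of 106, or 4.72%, against 5.16% of all tested genes. The adjusted rule called 0.0138% of all tested genes.

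The cap and vesicle lists, which hold most of the members, were centred near 0. Members make up 4 of the 8 tested genes of the first and 3 of the 11 of the second, so these medians in part repeat the values above. In the nephron progenitor list 5 of 8 tested genes were higher and 3 lower, with a median of 0.03, between -0.22 for Tmem100 and 0.11 for Wt1, the zinc-finger factor of progenitors and podocytes. In the renal vesicle and early nephron list 5 of 11 were higher and 6 lower, with a median of -0.0060, between -0.12 for Hnf4a, a proximal tubule factor, and 0.17 for the POU factor Pou3f3. Podocyte markers, the product of the vesicle's proximal end, had 5 of 7 genes higher and a median of 0.05. In each of these 3 lists 0 genes passed limma's test, at the adjusted threshold or at an unadjusted p under 0.05. The genes with the lowest and highest value of a list are named here because of those values.

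The homeobox and signalling partners of the members gave medians of similar size. In the HOX and TALE list 8 of 11 were higher, with a median of 0.03, and in the BMP list 11 of 20, with a median of 0.01; in the WNT list 9 of 22 were higher, with a median of -0.03. In these 3 lists 0 genes passed, and 0 had an unadjusted p under 0.05 (limma) by the brightest probe set of the gene. A dimmer tested probe set of Id2, in the BMP list, was at -0.31 (limma, unadjusted p = 0.0103, adjusted p = 0.870). The brightest probe set of Id2 was at -0.14 (limma, unadjusted p = 0.0532, adjusted p = 0.931). In the GDNF-RET list 8 of 12 were higher (median 0.01, 0 passed), in the ureteric bud list 7 of 11 (median 0.0047, 0 passed) and in the list of stromal progenitors and regulators 7 of 11 (median 0.02, 0 passed). Each of these last 3 had 1 gene at an unadjusted p under 0.05. It was the phosphatase gene Dusp6, a feedback inhibitor and target of receptor tyrosine kinase signalling, in the first and second, at 354 ± 19.5 and 314 ± 30.6 (log2 difference -0.17 ± 0.07, limma adjusted p = 0.918). A slightly dimmer tested probe set of Dusp6 was at -0.13, not under that threshold (limma, unadjusted p = 0.0983). In the list of stromal progenitors and regulators the gene was the guidance cue gene Ntn1, at 165 ± 14.3 and 143 ± 13.2 (-0.19 ± 0.08, limma adjusted p = 0.918).

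The Notch list, to which Jag1 belongs, held the other 3 such genes among its 17 tested members. Of these 17, 5 were higher and 12 lower, with a median of -0.02, and 0 passed; the 3 genes are 17.6% of the list, against 5.16% of all tested genes, and the list was not tested as a set. Jag2, a second Jagged ligand, read 106.9, 91.7, 121.4, 69.3 and 92.3 in the normal arrays and 52, 85.2, 103.2, 56.7 and 46.9 in the hyperinsulinemic arrays. Hyperinsulinemic replicates 6, 9 and 10 lay below every normal array, while replicates 7 and 8 lay within the normal range. The readings of replicates 6, 9 and 10, and of normal replicate 4, were below the 40th percentile of their own arrays (79.2, 87.6, 83.6 and 86.5). Jag2 thus met the level of the filter on more normal than hyperinsulinemic arrays. The log2 difference was -0.43 ± 0.18 (limma, unadjusted p = 0.0270, adjusted p = 0.918). With a pseudocount of 1 it was -0.52, and with 32 it was -0.37. Psenen, a subunit of the gamma-secretase that cleaves Notch, had means of 872 ± 24.2 and 786 ± 70.6, a difference of -0.15 ± 0.06 (limma, adjusted p = 0.918). The receptor gene Notch1 averaged 391 ± 29.3 and 430 ± 11.8, a difference of 0.13 ± 0.06 (limma, adjusted p = 0.918), but its second tested probe set went the other way, at -0.07. The Notch target Hes1, named here for its role, averaged 426 and 424, a difference of -0.0060 ± 0.08 that did not pass.

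**Figure D4:**
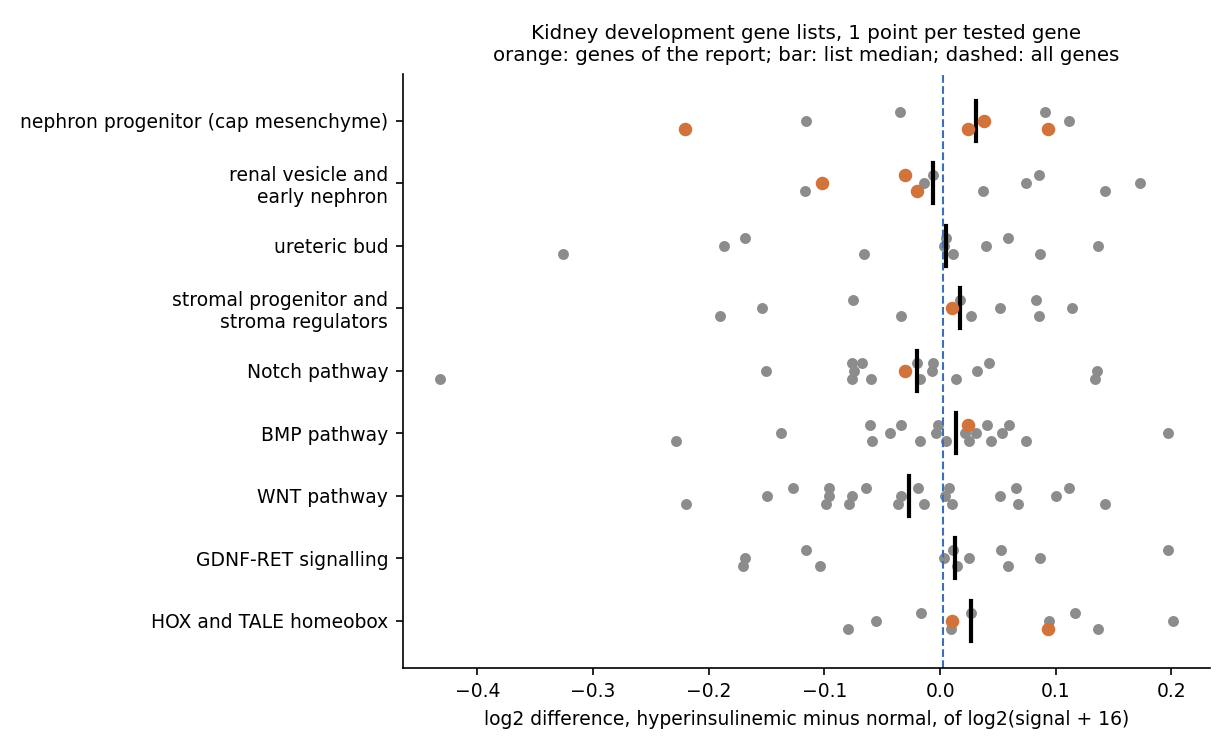
Log2 difference (hyperinsulinemic minus normal) of each tested gene of 9 kidney development lists, with the 8 tested nephrogenesis genes in orange, list medians as black bars and the median of all tested genes as a dashed line. List medians lie between -0.03 and 0.03. Jag2 of the Notch list, at -0.43, is the lowest point, and some of its readings lie below the filter level of their arrays.

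Some measures of the whole series moved with the groups and apply to every comparison above. The tissue label was borne out on each array by Cdh16, the kidney-specific cadherin (870.8 to 1323.4), Lrp2 of the proximal tubule (2159.4 to 2524.2) and Umod of the loop of Henle (327.8 to 632.1). Interstitial stroma markers had a log2 difference below 0 for 13 of 14 tested genes (0 passed, limma). At an unadjusted p under 0.05 there were 6, all lower, or 42.9% against 5.16% of all tested genes. Their summed signal was 14761 to 16619 in the normal and 13239 to 14703 in the hyperinsulinemic arrays, without overlap. Lum, the lowest of the list, differed by -0.63 (limma, adjusted p = 0.132), its groups not overlapping. Liver markers had a log2 difference above 0 for 7 of 8 (0 passed, 4 at an unadjusted p under 0.05, or 50%). Their summed signals were 1343 to 2795 and 1662 to 5396, the highest in hyperinsulinemic replicate 6. That array also had the lowest median correlation with the other arrays (0.974, against 0.980 to 0.984). Xist, a transcript of cells with more than one X chromosome, read 0.8 to 2 in the normal and 42.4 to 70.5 in the hyperinsulinemic arrays, so treatment and Xist level, and with it fetal sex, which the labels do not give, cannot be told apart here. The Y-linked gene Sry, also below the filter, read 17.9 ± 5.74 and 12.4 ± 9.67, with overlapping groups (exact permutation p = 0.302). Of a list of 10 X-linked and Y-linked transcripts, which does not cover all genes of these chromosomes, 3 were tested, all X-linked. All 3 had a log2 difference above 0 (0 passed, 2 at an unadjusted p under 0.05, limma). The translation factor gene Eif2s3 differed by 0.70 (limma, adjusted p = 0.133), its groups not overlapping. Erythroid markers were higher for 3 of 3 tested genes, and leukocyte markers for 6 of 9, with 0 in either list at an unadjusted p under 0.05, and none of the adrenal cortex markers was bright enough to test. Proximal tubule markers had a log2 difference below 0 for 13 of 16 (0 passed, 4 at an unadjusted p under 0.05, all lower, or 25% against 5.16% of all tested genes). Loop of Henle and distal tubule markers had one for 7 of 9 (0 passed, 1 at an unadjusted p under 0.05: the claudin gene Cldn10, at -0.29 with a limma adjusted p = 0.628, whose groups did not overlap). The part of any of these in the values of the nephrogenesis genes was not tested, except for the liver covariate given above.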

How the data were processed

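Total RNA of 10 rat fetal kidney samples was read on 1-colour Affymetrix arrays, 1 per sample. The authors deposited a linear intensity for each probe set and array, made with MAS5 per the submitters' processing notes (its version and settings: not given in the sources used here). All arrays shared a trimmed mean of 250 (2% cut from both ends), that is, they had been scaled to 1 target, and nothing more was done to them. GEO's platform annotation named 1 gene for 12789 of 15923 probe sets, several for 312 and none for 2822. The GRCr8 gene table, matched by Entrez identifier for 12754, served for names only, and positions are left out because the array's build is not stated.

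Signals were taken as log2(signal + 16), which understates changes of dim genes, and 57 control probe sets were dropped. Tested were the 9601 probe sets (7267 genes) at or above the 40th percentile of an array on 5 or more of the 10 arrays. The groups were compared by limma 3.58.1 under R 4.3.3, with lmFit and a trended eBayes, on both sides, adjusted after Benjamini and Hochberg over all 9601 at a threshold of 0.05. The fit was checked on simulated data. Single values were compared with exact permutation tests, and correlations with 100000 permutations (scipy 1.17.1). In gene lists the brightest tested probe set stood for a gene, and no set test was made. All probe sets of the members were named, and, of each list of kidney development genes, up to 3 genes with the smallest unadjusted p under 0.05. The alternatives were quantile or median normalization, pseudocounts of 1 and 32, no filter or the 60th percentile, no trend, array weights, covariates for the Gapdh 3' to 5' ratio and for liver markers, averaging the probe sets of a gene, and leaving out arrays. The members, lists, tests and alternatives were chosen with earlier results of these data known. The number of arrays limits the precision. Python 3.11.15 with matplotlib 3.10.9 drew the figures.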

Additional observations from a re-analysis of the deposited data

Results flagged for a closer look

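Lhx1 in hyperinsulinemic replicate 6, at a signal of 178.7, stood apart from the other 4 arrays of its group, which lay between 147.4 and 150.8; the gap made up 0.891 of the group's range, above Dixon's critical value of 0.71 for 5 samples. It was the 1 value so marked among 30 groups of 5 arrays that were looked at, where chance marks about 1 in 20. Without that array the log2 difference of Lhx1 was -0.15 (limma, adjusted p = 0.879), against -0.10 with it.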

How the results depend on the processing

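None of the 10 genes and none of the 106 tested development genes passed limma's adjusted threshold with all arrays, under any alternative in which they were tested or without any single array; the smallest adjusted p of a member was 0.714. Over all probe sets the count was 1, and it was 4 with array weights, 2 with a common median, 5 without a filter, and 0 with the liver covariate, without the intensity trend and without the 2 arrays with the most Alb; it ran from 0 to 4 when each array was left out. Members with differences near 0 changed sign: Pax8 was at 0.0034 with array weights, Bmp7 at -0.13 and Jag1 at 0.064 with the liver covariate, and Crym at -0.0055 without the 2 arrays with the most Alb. Leaving out each array gave -0.037 to 0.055 for Meis2, -0.054 to 0.026 for Pax8, -0.023 to 0.076 for Bmp7, -0.14 to 0.050 for Jag1, -0.00020 to 0.073 for Crym and -0.03 to 0.15 for Gdnf. Hoxa11 (0.06 to 0.13), Lhx1 (-0.18 to -0.06), Wnt4 (0.19 to 0.36) and Tmem100 (-0.31 to -0.11) kept their sign there and under the other alternatives. With the liver covariate the median of the Notch list went from -0.02 to 0.04 and that of the renal vesicle list from -0.0060 to 0.06. The cause of these shifts was not tested. No paired analysis was made because the labels record no pairing between arrays of the 2 groups. Wnt4 and Gdnf were read at the dim end of the array, where the signal over background limits what can be measured.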
